A study of Homo sapiens with 14 samples.

Results

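The genes described here are 10 members of the NOTCH pathway: the receptors NOTCH1, NOTCH2 and NOTCH3, the ligands JAG1, JAG2 and DLL1, the nuclear factors RBPJ and MAML1, and the target genes HES1 and HEY1. They were chosen by name and matched from symbol to gene identifier, and they are 10 of the 18006 genes of the count table. RNA was sequenced in 14 libraries of HEK 293, a line of human embryonic kidney cells. The groups were CFIm25 knockdown (2 libraries), CFIm68 knockdown (3), CFIm25 overexpression (3), CFIm68 overexpression (3) and control (3), whose genotype the labels give as wild type. Knockdown was by siRNA given with a lipid transfection reagent. The labels do not say how overexpression was achieved, nor what the control cells received. All libraries came from 1 cell line, no source says that they were separate cultures, and p-values therefore measure only the spread between libraries, which may be technical.

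CFIm25, made by the gene NUDT21, and CFIm68, made by CPSF6, are subunits of cleavage factor I, a complex that takes part in choosing where the 3' end of a messenger RNA is cut and polyadenylated. CFIm25 binds the RNA letters UGUA upstream of cleavage sites. In the NOTCH pathway a ligand on one cell binds a receptor on its neighbour, proteases release the intracellular part of the receptor, and that part enters the nucleus. There it joins the DNA-binding protein RBPJ and a Mastermind coactivator such as MAML1 and switches on genes such as HES1 and HEY1, which encode transcriptional repressors. The values below are levels of RNA per gene, which hold neither the length of the 3' end used nor the cleavage of the receptors.

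Letters known to matter to CFIm25 and to RBPJ occur in these genes. The windows below are from the annotated 3' UTRs of 5 members whose levels the results turn on (GENCODE 29, build hg38, 5' to 3' on the strand of the gene), and each holds the last TGTA before the annotated end. Capitals mark TGTA, the DNA form of the letters that CFIm25 binds.
NOTCH1 (chr9:136494485-136494514, minus strand): gaacTGTAgatgaTGTAtttttttcatctt
NOTCH2 (chr1:119911605-119911634, minus strand): aaataatattttgTGTAtaaatttgttata
NOTCH3 (chr19:15159049-15159078, minus strand): aaccttggacccaTGTAataaatacttctt
JAG1 (chr20:10637971-10638000, minus strand): tattaaattttttTGTAtgaaaacatggaa
HES1 (chr3:194138703-194138732, plus strand): tgttattaaaagaacattTGTAaaaatcca

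The letters lay 69 bases before the annotated end in NOTCH1, 69 in NOTCH2, 28 in NOTCH3, 304 in JAG1 and 12 in HES1. Over the whole 3' UTR, TGTA on the strand of the RNA occurred 10 times in NOTCH1, 23 times in NOTCH2, 10 times in NOTCH3, 14 times in JAG1, 10 times in JAG2, 6 times in DLL1, 7 times in HES1, 9 times in HEY1, 35 times in RBPJ and 8 times in MAML1. Per kb of 3' UTR the members ran from 3.32 in MAML1 to 14.03 in HES1, which has a 3' UTR of 499 bases, and the 3 receptors were alike at 6.11, 6.13 and 6.16. Over 11831 tested genes with a 3' UTR the medians, each taken separately, were 5 occurrences, a length of 1082 bases and 4.96 occurrences per kb. NOTCH2 and RBPJ had the longest 3' UTRs of the members, at 3753 and 4121 bases. A match says only that the letters are in the annotated sequence.

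HES1 is the textbook example of a gene with RBPJ sites at its promoter. The window below is from its promoter entry in RefSeq (GRCh38.p14), and capitals mark TGGGAA, the core letters of the RBPJ site.
HES1 promoter (chr3:194136059-194136088, plus strand): tactgTGGGAAagaaagttTGGGAAgtttc

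The 2 matches began 84 and 70 bases before the annotated start. TGGGAA was searched on both strands from 250 bases before to 50 bases after the start, and 24.0% of 35116 promoter entries hold it. It was not found in the entries of NOTCH1, NOTCH2, NOTCH3, JAG1, JAG2 or MAML1, and 1 of the 5 entries of RBPJ itself held it. HEY1 and DLL1 were not searched. The longer form GTGGGAA, held by 6.25% of entries, occurred 1 time in the HES1 entry and 2 times in that RBPJ entry.

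By GENCODE 29 on hg38, NOTCH1 spans chr9:136494433-136545786, NOTCH2 chr1:119911553-120069626, NOTCH3 chr19:15159038-15200981, JAG1 chr20:10637684-10673999, JAG2 chr14:105140981-105168824, DLL1 chr6:170282206-170306565 and HEY1 chr8:79764010-79767863, all on the minus strand. On the plus strand, HES1 spans chr3:194136145-194138732, RBPJ chr4:26163455-26435131 and MAML1 chr5:179732850-179777286. The exons of JAG1 share 79 bases with those of an antisense gene, and the exons of JAG2 share 469 bases with those of another gene on its own strand. NOTCH2 has a partial copy, NOTCH2NLA, which had 0 to 0.445 CPM (counts per 1000000 counts of the library). How reads that fit both genes were assigned is not known here, so NOTCH2 is uncertain to that extent.

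The CFIm25 knockdown libraries held 22464083 and 33895308 counts and those of CFIm68 knockdown 24119597 to 28963694. CFIm25 overexpression had 16437307 to 23125253 counts, CFIm68 overexpression 15822467 to 18297610 and control 17734490 to 18385536. Levels are given as CPM after TMM scaling, which corrects for library composition, with the libraries of a group in the order of their replicate numbers. NUDT21 averaged 53.8 ± 1.2 CPM in CFIm25 knockdown (SD, n = 2), 232.5 ± 9.27 CPM in CFIm68 knockdown, 729 ± 55.6 CPM in CFIm25 overexpression, 597 ± 47.9 CPM in CFIm68 overexpression and 514 ± 19.6 CPM in control (SD, n = 3 each). CPSF6 averaged 533 ± 10.2 CPM in CFIm25 knockdown (SD, n = 2), 41.6 ± 0.996 CPM in CFIm68 knockdown, 252 ± 13.3 CPM in CFIm25 overexpression, 730.2 ± 17.4 CPM in CFIm68 overexpression and 268 ± 5.78 CPM in control (SD, n = 3 each). Each targeted gene thus moved the way its labels say, and each knockdown also moved the other subunit. Of 6 markers of HEK 293-type cells, 5 reached 1 CPM, VIM among them at 484 to 911 CPM and NEFL at 192 to 316 CPM. Among kidney tubule markers LRP2 had 146 to 194 CPM, while SLC34A1 was at 0 in every library. None of 5 endothelial and none of 5 blood markers reached 1 CPM. In a bulk sample, fewer cells that express a gene and less of its RNA per cell cannot be told apart.

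All 10 members passed the filter on low counts, with between 206 counts (NOTCH2) and 3571 counts (JAG1) in a library. Each comparison was tested with edgeR's quasi-likelihood test over 12080 genes, and a gene is called higher or lower at a Benjamini-Hochberg adjusted p under 0.05. In CFIm25 knockdown against control, 1 member was higher and 6 were lower, and in CFIm68 knockdown also 1 was higher and 6 were lower. Calls were common over all genes: 47.6% of tested genes were called in CFIm25 knockdown, 24.4% higher and 23.2% lower, and 56.4% in CFIm68 knockdown, 28.3% higher and 28.1% lower. In CFIm25 overexpression 3 members were higher and 4 lower, beside 56.7% of tested genes called, 27.7% higher and 29.1% lower. In CFIm68 overexpression 4 members were higher and 0 lower, beside 29.8% of tested genes called, 14.5% higher and 15.4% lower. The members' median log2 change was -0.26 in CFIm25 knockdown, -0.44 in CFIm68 knockdown, -0.03 in CFIm25 overexpression and 0.16 in CFIm68 overexpression, and the median over all tested genes was 0.0 or 0.01 in each. These 4 comparisons share their 3 control libraries. The lowest and highest libraries of the 2 groups did not overlap for 7 members in CFIm25 knockdown (64.1% of tested genes), 6 in CFIm68 knockdown (64.4%), 7 in CFIm25 overexpression (57.8%) and 5 in CFIm68 overexpression (40%), shares near those of all tested genes in the 4 comparisons.

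**Figure D1:**
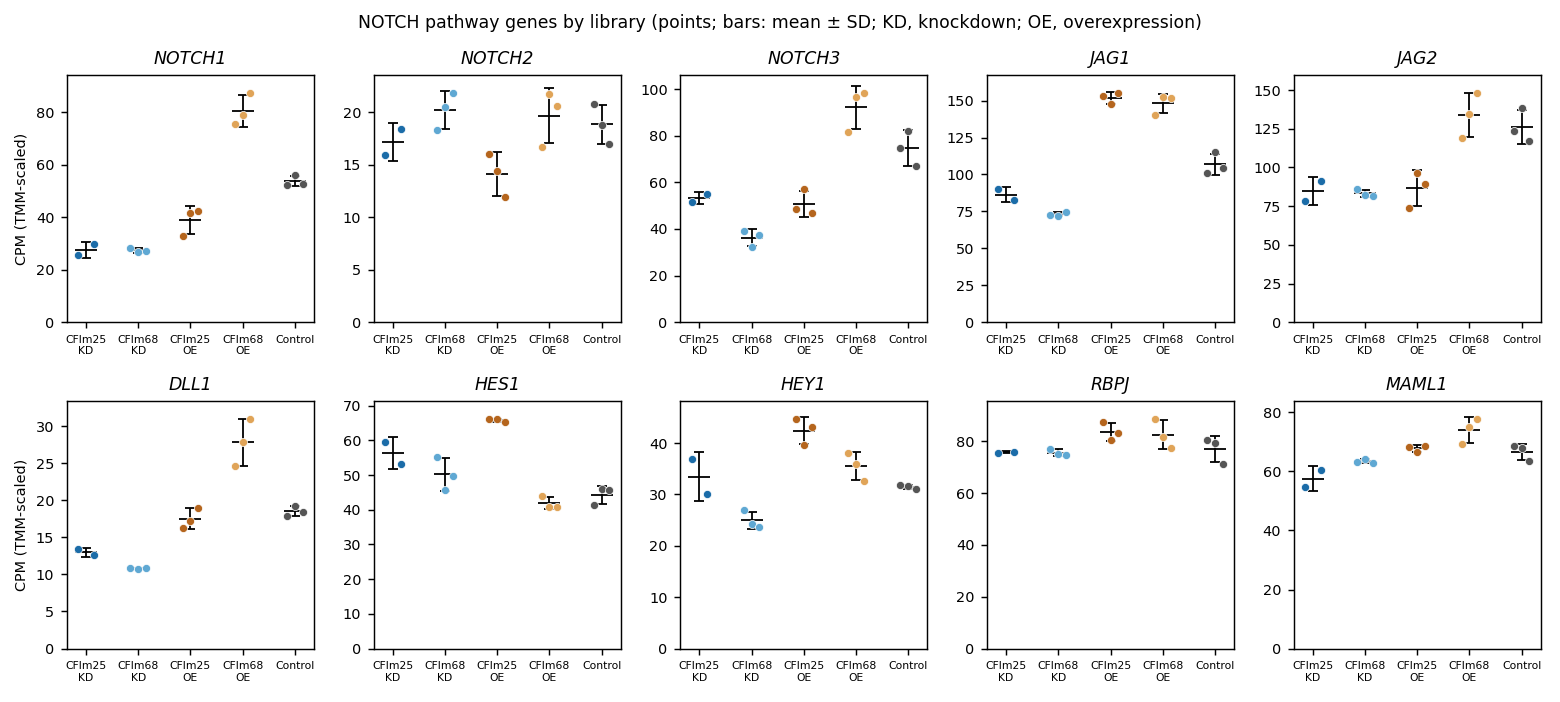
Level of each of the 10 NOTCH pathway genes in CPM (vertical axis, from 0) in every library, by group: CFIm25 knockdown, CFIm68 knockdown, CFIm25 overexpression, CFIm68 overexpression and control. Points are libraries, bars are the group mean ± SD (n = 2 for CFIm25 knockdown, 3 for the others); NOTCH1 lies at 25.5 to 29.7 CPM in both knockdowns and at 75.4 to 87.4 CPM in CFIm68 overexpression, on either side of control at 52.4 to 56.0 CPM, while RBPJ lies between 71.1 and 88.5 CPM in all groups.

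NOTCH1, a receptor, fell in both knockdowns and in CFIm25 overexpression and rose in CFIm68 overexpression. It had 25.5 and 29.7 CPM in CFIm25 knockdown and 28.3, 26.6 and 27.3 CPM in CFIm68 knockdown. In the overexpression groups it had 32.9, 41.6 and 42.4 CPM with CFIm25 and 75.4, 78.8 and 87.4 CPM with CFIm68, and in control it had 52.4, 56.0 and 52.8 CPM. No group overlapped with control, and both knockdowns lay near the middle of the distance between 0 and the control level. The log2 change against control was -0.95 ± 0.09 in CFIm25 knockdown (SE, adjusted p = 2.1e-09), -0.97 ± 0.08 in CFIm68 knockdown (adjusted p = 5e-11), -0.47 ± 0.08 in CFIm25 overexpression (adjusted p = 1.4e-05) and 0.58 ± 0.08 in CFIm68 overexpression (adjusted p = 1.6e-06), all by edgeR. In order of level the groups were CFIm68 knockdown, CFIm25 knockdown, CFIm25 overexpression, control and CFIm68 overexpression, and among neighbours in that order only the 2 knockdowns overlapped.

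Genes around NOTCH1 on chromosome 9 had median changes of the same sign. The 50 tested genes nearest to NOTCH1 had a median log2 change of -0.30 in CFIm25 knockdown, -0.31 in CFIm68 knockdown, -0.29 in CFIm25 overexpression and 0.10 in CFIm68 overexpression. With that median taken off, the change of NOTCH1 was -0.65 in CFIm25 knockdown, -0.66 in CFIm68 knockdown and 0.49 in CFIm68 overexpression, each still past the threshold of edgeR's test. In CFIm25 overexpression it was -0.18, which was not past it (adjusted p = 0.0566).

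NOTCH3, the receptor with the most RNA per kb in every group, was lowest in CFIm68 knockdown. It had 51.5 and 55.1 CPM in CFIm25 knockdown, 39.1, 32.3 and 37.4 CPM in CFIm68 knockdown, 48.6, 57.1 and 46.7 CPM in CFIm25 overexpression, 81.4, 96.6 and 98.4 CPM in CFIm68 overexpression and 74.9, 82.2 and 66.8 CPM in control. The first 3 of these groups lay wholly below control, and CFIm68 overexpression overlapped with it in 1 library of each group. The log2 change was -0.48 ± 0.09 in CFIm25 knockdown (SE, adjusted p = 9.5e-05), -1.04 ± 0.08 in CFIm68 knockdown (adjusted p = 3.2e-11), -0.56 ± 0.08 in CFIm25 overexpression (adjusted p = 2.4e-06) and 0.30 ± 0.08 in CFIm68 overexpression (adjusted p = 0.0056). The rise in CFIm68 overexpression was 0.23 without control replicate 3, the lowest control library, and then missed the threshold (adjusted p = 0.0546). It was 0.52 when the median of the nearest genes, -0.21, was taken off.

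NOTCH2, the third receptor, had the fewest CPM of the 3 and followed another pattern. It had 15.9 and 18.4 CPM in CFIm25 knockdown, 18.3, 20.5 and 21.9 CPM in CFIm68 knockdown, 16.0, 14.4 and 11.9 CPM in CFIm25 overexpression, 16.7, 21.7 and 20.6 CPM in CFIm68 overexpression and 20.8, 18.8 and 17.0 CPM in control. Only CFIm25 overexpression lay wholly below control, and all neighbours in the order of levels overlapped. Its log2 change there was -0.41 ± 0.11 (SE, adjusted p = 0.0026). The other comparisons were not past the threshold, with log2 changes of -0.13 (-0.36 to 0.10, ± 2 SE) in CFIm25 knockdown and 0.10 (-0.11 to 0.30) in CFIm68 knockdown, while CFIm68 overexpression had 0.06 (-0.15 to 0.28). In both knockdowns these intervals leave out changes of the size measured for NOTCH1.

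JAG1, a ligand of the Jagged type, was lower in both knockdowns and higher in both overexpression groups. It had 89.98 and 82.8 CPM in CFIm25 knockdown, 72.4, 71.97 and 74.5 CPM in CFIm68 knockdown, 153.2, 147.5 and 155.2 CPM in CFIm25 overexpression, 140.5, 152.3 and 151.4 CPM in CFIm68 overexpression and 101.3, 114.9 and 104.7 CPM in control. No group overlapped with control. The log2 change was -0.31 ± 0.06 in CFIm25 knockdown (SE, adjusted p = 0.00019), -0.55 ± 0.06 in CFIm68 knockdown (adjusted p = 2.9e-09), 0.51 ± 0.06 in CFIm25 overexpression (adjusted p = 1.2e-08) and 0.47 ± 0.06 in CFIm68 overexpression (adjusted p = 3.1e-07). Among the 10 members, only JAG1 was called lower in both knockdowns and higher in both overexpression groups.

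JAG2, the other Jagged ligand, was lower in 3 groups. It had 78.5 and 91.3 CPM in CFIm25 knockdown, 86.0, 82.5 and 81.3 CPM in CFIm68 knockdown, 73.7, 96.5 and 89.6 CPM in CFIm25 overexpression, 119.3, 134.3 and 148.2 CPM in CFIm68 overexpression and 123.4, 138.5 and 117.1 CPM in control. The first 3 groups lay below every control library and overlapped with each other. The log2 change was -0.57 ± 0.09 (SE, adjusted p = 1e-05) in CFIm25 knockdown, -0.60 ± 0.08 (adjusted p = 4e-07) in CFIm68 knockdown and -0.55 ± 0.08 (adjusted p = 2.1e-06) in CFIm25 overexpression. In CFIm68 overexpression it was 0.08 (-0.08 to 0.25, ± 2 SE; adjusted p = 0.46). That value was 0.30, past the threshold, with the median of the nearest genes, -0.22, taken off (adjusted p = 0.00845).

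DLL1, a ligand of the Delta type, had 13.4 and 12.6 CPM in CFIm25 knockdown, 10.9, 10.7 and 10.8 CPM in CFIm68 knockdown, 16.2, 17.3 and 19.0 CPM in CFIm25 overexpression, 24.6, 27.8 and 30.9 CPM in CFIm68 overexpression and 17.9, 19.3 and 18.4 CPM in control. Both knockdowns lay wholly below control and CFIm68 overexpression wholly above it, while CFIm25 overexpression overlapped with control. The log2 change was -0.52 ± 0.10 in CFIm25 knockdown (SE, adjusted p = 8.3e-05), -0.78 ± 0.09 in CFIm68 knockdown (adjusted p = 2.6e-08) and 0.59 ± 0.09 in CFIm68 overexpression (adjusted p = 6.1e-06). In CFIm25 overexpression it was -0.09 (-0.26 to 0.09, ± 2 SE; adjusted p = 0.41).

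**Figure D2:**
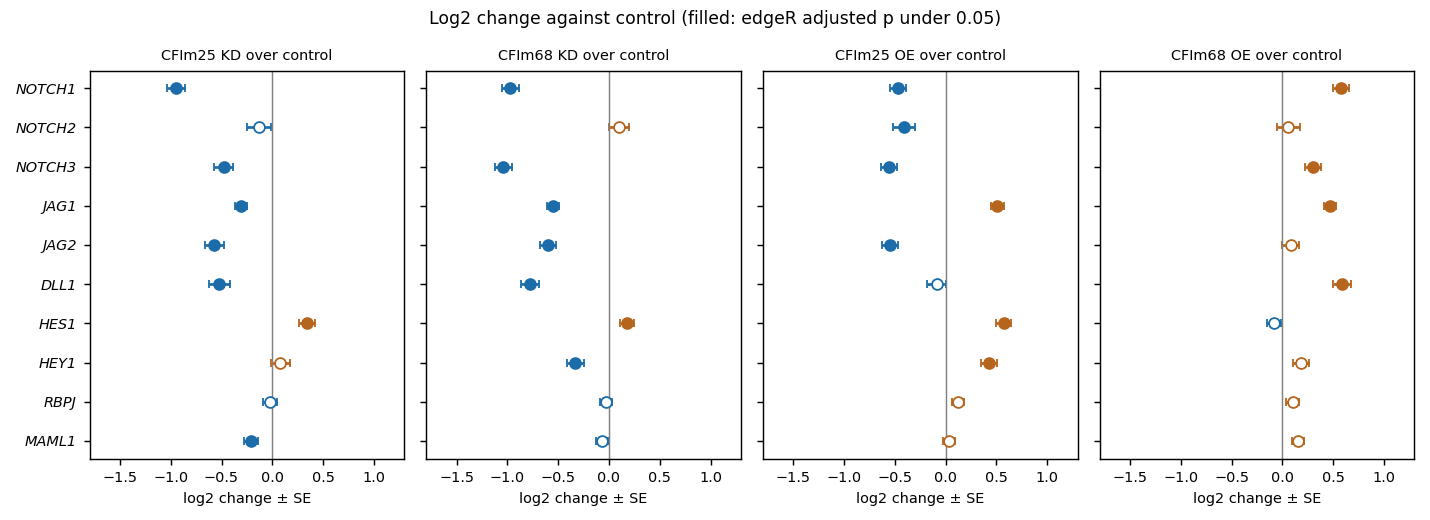
Log2 change (horizontal axis) of the 10 genes in each perturbed group over control, as point ± SE from edgeR; filled points have an adjusted p under 0.05. NOTCH1, NOTCH3, JAG1, JAG2 and DLL1 are lower in both knockdowns, at -0.31 to -1.04, and the 4 members called in CFIm68 overexpression are all higher, at 0.30 to 0.59.

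Of the nuclear partners of the receptors among the members, only MAML1 in CFIm25 knockdown was called against control. RBPJ, the DNA-binding factor, had 75.5 and 76.0 CPM in CFIm25 knockdown, 77.1, 75.0 and 74.7 CPM in CFIm68 knockdown, 87.4, 80.4 and 83.2 CPM in CFIm25 overexpression, 88.5, 81.7 and 77.5 CPM in CFIm68 overexpression and 80.5, 79.5 and 71.1 CPM in control. All groups overlapped with control. Its log2 change was -0.02 (-0.16 to 0.11, ± 2 SE) in CFIm25 knockdown, -0.03 (-0.15 to 0.09) in CFIm68 knockdown, 0.12 (0.0 to 0.24) in CFIm25 overexpression and 0.10 (-0.02 to 0.22) in CFIm68 overexpression, and none was past the threshold. With the median of the nearest genes taken off, RBPJ was called lower in CFIm25 knockdown, by -0.20 (adjusted p = 0.0163).

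MAML1, a coactivator that joins the receptor fragment and RBPJ, had 54.6 and 60.6 CPM in CFIm25 knockdown, 63.2, 64.2 and 63.0 CPM in CFIm68 knockdown, 68.4, 66.6 and 68.8 CPM in CFIm25 overexpression, 69.3, 75.2 and 77.7 CPM in CFIm68 overexpression and 68.7, 67.8 and 63.7 CPM in control. The CFIm25 knockdown libraries lay below control and the CFIm68 overexpression libraries above it, without overlap. Only the first was past the threshold, at -0.21 ± 0.07 (SE, adjusted p = 0.01). It was lost without CFIm25 knockdown replicate 1, at -0.14 (adjusted p = 0.182), and with the median of the nearest genes taken off, at -0.04 (adjusted p = 0.656). The log2 change of MAML1 was -0.07 (adjusted p = 0.30) in CFIm68 knockdown, 0.03 (adjusted p = 0.73) in CFIm25 overexpression and 0.15 (adjusted p = 0.054) in CFIm68 overexpression.

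The 2 targets among the members, HES1 and HEY1, followed other patterns than NOTCH1 and NOTCH3. HES1, a repressor of neuronal differentiation genes, was higher in 3 groups in which NOTCH1 and NOTCH3 were lower. It had 59.6 and 53.2 CPM in CFIm25 knockdown, 55.3, 45.8 and 49.8 CPM in CFIm68 knockdown, 66.1, 66.1 and 65.4 CPM in CFIm25 overexpression, 44.1, 40.9 and 40.8 CPM in CFIm68 overexpression and 41.4, 45.9 and 45.7 CPM in control. CFIm25 knockdown and CFIm25 overexpression lay wholly above control, and the other groups overlapped with it. The log2 change was 0.34 ± 0.08 in CFIm25 knockdown (SE, adjusted p = 0.00046), 0.18 ± 0.07 in CFIm68 knockdown (adjusted p = 0.025) and 0.57 ± 0.07 in CFIm25 overexpression (adjusted p = 6.1e-08). In CFIm68 overexpression, where NOTCH1 and NOTCH3 were higher, it was -0.08 (-0.23 to 0.06, ± 2 SE; adjusted p = 0.42).

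The calls of HES1 in the knockdowns depended on the alternatives run. The nearest 50 tested genes had a median of 0.20 in CFIm25 knockdown, 0.08 in CFIm68 knockdown and 0.25 in CFIm25 overexpression, and with it taken off the change of HES1 was 0.15 (adjusted p = 0.12), 0.10 (adjusted p = 0.219) and 0.32 (adjusted p = 0.00035). The CFIm68 knockdown call was also lost without CFIm68 knockdown replicate 1 (0.10, adjusted p = 0.251), without CFIm68 knockdown replicate 3 (0.19, adjusted p = 0.0518) and without control replicate 1 (0.14, adjusted p = 0.136).

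HEY1, a related repressor with a role in the vasculature and heart, had 36.8 and 30.1 CPM in CFIm25 knockdown, 26.9, 24.2 and 23.8 CPM in CFIm68 knockdown, 44.7, 39.5 and 43.1 CPM in CFIm25 overexpression, 38.1, 36.0 and 32.7 CPM in CFIm68 overexpression and 31.8, 31.6 and 31.1 CPM in control. CFIm68 knockdown lay wholly below control, both overexpression groups lay wholly above it, and 1 CFIm25 knockdown library lay on each side. The log2 change was -0.33 ± 0.08 in CFIm68 knockdown (SE, adjusted p = 0.00079) and 0.43 ± 0.08 in CFIm25 overexpression (adjusted p = 3e-05). It was 0.08 (-0.09 to 0.25, ± 2 SE; adjusted p = 0.47) in CFIm25 knockdown and 0.18 (0.02 to 0.34; adjusted p = 0.097) in CFIm68 overexpression. The 2 targets thus differed in CFIm68 knockdown, where HES1 was called higher and HEY1 lower, and both were called higher in CFIm25 overexpression.

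To set the receptors beside each other, CPM were divided by the length of the principal annotated transcript. The same length was used in every group, while the 3' end in use, on which the true length depends, was not measured. The 3 receptors together had 10.6 ± 0.777 CPM per kb in CFIm25 knockdown (SD, n = 2), 8.90 ± 0.45 in CFIm68 knockdown, 11.3 ± 0.92 in CFIm25 overexpression, 21.0 ± 1.85 in CFIm68 overexpression and 16.0 ± 1.14 in control (SD, n = 3 each). The make-up of that sum also moved. NOTCH1 held 27.9% of it in CFIm25 knockdown, 33.1% in CFIm68 knockdown, 37.1% in CFIm25 overexpression, 41.2% in CFIm68 overexpression and 36.1% in control. NOTCH2 held 14.2% in CFIm25 knockdown, 20.0% in CFIm68 knockdown, 11.1% in CFIm25 overexpression, 8.20% in CFIm68 overexpression and 10.3% in control, so its share was highest in the group with the lowest sum. NOTCH3 held the largest share in every group, between 46.9% in CFIm68 knockdown and 58.0% in CFIm25 knockdown, with 53.6% in control. These shares were not tested.

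The 3 ligands together had 33.2 ± 0.509 CPM per kb in CFIm25 knockdown (SD, n = 2), 29.95 ± 0.37 in CFIm68 knockdown, 45.9 ± 2.12 in CFIm25 overexpression, 56.6 ± 4.44 in CFIm68 overexpression and 45.5 ± 3.18 in control (SD, n = 3 each). The sum in CFIm25 overexpression was within the spread of control, but its make-up was not. JAG1 held 55.8% ± 3.17 there, against 39.6% ± 0.844 in control, and JAG2 held 32.2% ± 3.17, against 47.6% ± 1.24 in control (SD, n = 3 each). JAG1 had 43.9% in CFIm25 knockdown, 41.0% in CFIm68 knockdown and 44.1% in CFIm68 overexpression. DLL1 held 11.4% to 15.4% of the ligand sum, with its largest share in CFIm68 overexpression.

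**Figure D3:**
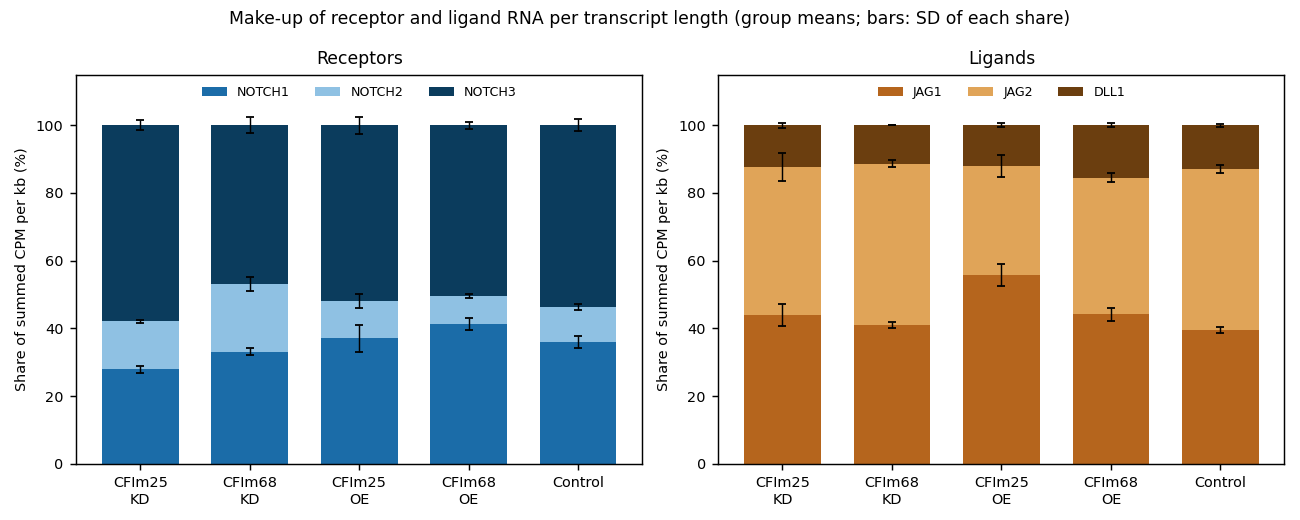
Share (%) of each receptor (left) and each ligand (right) in the summed CPM per kb of transcript of its kind, by group; segments are group means and the bar at the top of each segment is the SD of that share (n = 2 for CFIm25 knockdown, 3 for the others). The NOTCH2 segment is widest in CFIm68 knockdown at 20.0%, and JAG1 takes 55.8% of the ligand sum in CFIm25 overexpression, against 39.6% in control.

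Knockdown was then set against overexpression of the same subunit, in a pair of comparisons that share no library with each other. In CFIm68 knockdown against CFIm68 overexpression 1 member was higher and 7 were lower, beside 67.1% of tested genes called, 33.7% higher and 33.5% lower, and the libraries of the 2 groups did not overlap for 9 members, beside 72.5% of tested genes. NOTCH1 averaged 27.4 ± 0.843 CPM in CFIm68 knockdown and 80.5 ± 6.18 CPM in CFIm68 overexpression (SD, n = 3 each), a log2 difference of -1.55 ± 0.08 (SE, adjusted p = 5.5e-16), or 2.94-fold lower. The difference was -1.34 ± 0.08 for NOTCH3 (adjusted p = 4.3e-14), -1.36 ± 0.09 for DLL1 (adjusted p = 6e-14), -1.02 ± 0.06 for JAG1 (adjusted p = 2.9e-15), -0.69 ± 0.08 for JAG2 (adjusted p = 2.1e-08) and -0.51 ± 0.08 for HEY1 (adjusted p = 2.1e-06). NOTCH2 stayed at 0.03 (-0.17 to 0.24, ± 2 SE; adjusted p = 0.79). The smaller calls depended on the neighbouring genes: HES1 was higher by 0.26 ± 0.07 (SE, adjusted p = 0.0014) and MAML1 lower at -0.22 ± 0.06 (adjusted p = 0.0014), but with the median of the nearest genes taken off HES1 had 0.06 (adjusted p = 0.44) and MAML1 had 0.06 (adjusted p = 0.359).

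In CFIm25 knockdown against CFIm25 overexpression 1 member was higher and 6 were lower, beside 56.1% of tested genes called, 28.6% higher and 27.5% lower, and 7 members did not overlap, beside 67.5% of tested genes. JAG1 differed most, at 86.4 ± 5.1 CPM in CFIm25 knockdown (SD, n = 2) and 152.0 ± 4.02 CPM in CFIm25 overexpression (SD, n = 3), a log2 difference of -0.82 ± 0.06 (SE, adjusted p = 1.4e-11). NOTCH1 had -0.48 ± 0.09 (adjusted p = 6.3e-05), DLL1 -0.43 ± 0.10 (adjusted p = 0.00048), HEY1 -0.35 ± 0.08 (adjusted p = 0.00078), MAML1 -0.23 ± 0.07 (adjusted p = 0.0032) and HES1 -0.23 ± 0.07 (adjusted p = 0.01). NOTCH3 and JAG2, which were lower than control in both of these groups, differed by 0.07 (-0.11 to 0.26, ± 2 SE) and -0.02 (-0.20 to 0.16) between them. NOTCH2 was called higher at 0.28 ± 0.12 (adjusted p = 0.044), a call that most alternatives below did not keep.

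With only 2 CFIm25 knockdown libraries, several of these calls rested on 1 of them. Without replicate 2 of CFIm25 knockdown 4 of the members were called in place of 7, HES1 having -0.14 (adjusted p = 0.228), HEY1 -0.20 (adjusted p = 0.102) and NOTCH2 0.16 (adjusted p = 0.416). Without replicate 1 MAML1 had -0.16 (adjusted p = 0.0945). JAG1, NOTCH1 and DLL1 were called without either. In both subunits, 5 members were lower in knockdown than in overexpression (NOTCH1, JAG1, DLL1, HEY1 and MAML1), 0 were higher in both, and HES1 was called in opposite directions. Over all tested genes 14.3%, or 1726, were lower in both, 1832 were higher in both and 1331 were called in opposite directions.

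The 2 subunits were also compared directly. In CFIm68 knockdown against CFIm25 knockdown 0 members were higher and 3 were lower, beside 24.2% of tested genes called, 11.1% higher and 13.2% lower, and 5 members did not overlap, beside 56.3% of tested genes. NOTCH3 averaged 36.3 ± 3.55 CPM in CFIm68 knockdown (SD, n = 3) and 53.3 ± 2.58 CPM in CFIm25 knockdown (SD, n = 2), a log2 difference of -0.56 ± 0.09 (SE, adjusted p = 5e-05). HEY1 differed by -0.41 ± 0.08 (adjusted p = 0.00059) and JAG1 by -0.24 ± 0.06 (adjusted p = 0.005). Without CFIm25 knockdown replicate 1 these 2 calls were lost, HEY1 having -0.27 (adjusted p = 0.0723) and JAG1 -0.18 (adjusted p = 0.135), and 1465 genes were called over the table in place of 2929. NOTCH1 differed by -0.02 (-0.20 to 0.17, ± 2 SE; adjusted p = 0.92) and JAG2 by -0.03 (-0.21 to 0.15; adjusted p = 0.84).

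In CFIm68 overexpression against CFIm25 overexpression 5 members were higher and 2 were lower, beside 63.7% of tested genes called, 32.9% higher and 30.8% lower, and 8 members did not overlap, beside 63.8% of tested genes. NOTCH1 averaged 80.5 ± 6.18 CPM in CFIm68 overexpression and 38.9 ± 5.28 CPM in CFIm25 overexpression (SD, n = 3 each), a log2 difference of 1.06 ± 0.08 (SE, adjusted p = 3.1e-12), or 2.08-fold. NOTCH3 differed by 0.86 ± 0.08 (adjusted p = 6.3e-10), NOTCH2 by 0.47 ± 0.11 (adjusted p = 0.00053), DLL1 by 0.67 ± 0.09 (adjusted p = 7.7e-08) and JAG2 by 0.63 ± 0.08 (adjusted p = 1.3e-07), so all 3 receptors were higher with CFIm68. The 2 targets among the members ran the other way, HES1 at -0.65 ± 0.07 (adjusted p = 3.8e-09) and HEY1 at -0.26 ± 0.08 (adjusted p = 0.0054). Of 9 other tested genes listed as targets of the pathway, 3 were higher and 3 lower in this comparison. HES4 at 0.69 ± 0.09 (adjusted p = 1e-07) and HES6 at 0.64 ± 0.08 (adjusted p = 4.1e-08) were among the higher. The values of the 3 lower ones are not printed here. JAG1, which was higher than control in both groups, differed by -0.04 (-0.15 to 0.07, ± 2 SE; adjusted p = 0.57). With the medians of the nearest genes taken off, the difference was 0.67 for NOTCH1, 1.04 for JAG2 and -0.28 for HES1, each still called.

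The same 2 groups differed in other markers. The summed level of the 6 HEK 293-type markers, mostly VIM and NEFL, was 877 to 893 CPM in CFIm68 overexpression and 1078 to 1181 CPM in CFIm25 overexpression. It was 788 and 826 CPM in CFIm25 knockdown, 853 to 886 CPM in CFIm68 knockdown and 966 to 1028 CPM in control. That of 6 measured mature kidney markers, mostly LRP2, was 186 to 199 CPM in CFIm68 overexpression and 151 to 165 CPM in CFIm25 overexpression, beside 167 and 188 CPM in CFIm25 knockdown, 177 to 178 CPM in CFIm68 knockdown and 165 to 185 CPM in control. The summed level of 5 measured keratinocyte-type markers was 2.39 to 2.82 CPM in CFIm68 overexpression and 10.25 to 13.3 CPM in CFIm25 overexpression, nearly all of it KRT17, while KRT5, KRT14, KRT6A and TP63 had at most 0.124 CPM in any library. It was 4.94 and 7.04 CPM in CFIm25 knockdown, 9.79 to 14.3 CPM in CFIm68 knockdown and 3.94 to 4.43 CPM in control. Of 6 mesenchymal markers 2 reached 1 CPM, and the sum, mostly COL1A1, was 24.95 to 28.2 CPM in CFIm68 overexpression, 46.5 to 53.7 CPM in CFIm25 overexpression and 47.5 to 52.0 CPM in control, beside 50.6 and 55.7 CPM in CFIm25 knockdown and 63.2 to 65.8 CPM in CFIm68 knockdown, with COL1A2, FN1 and DCN at 0 in every library. Their part in the differences of the NOTCH genes was not tested.

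**Figure D4:**
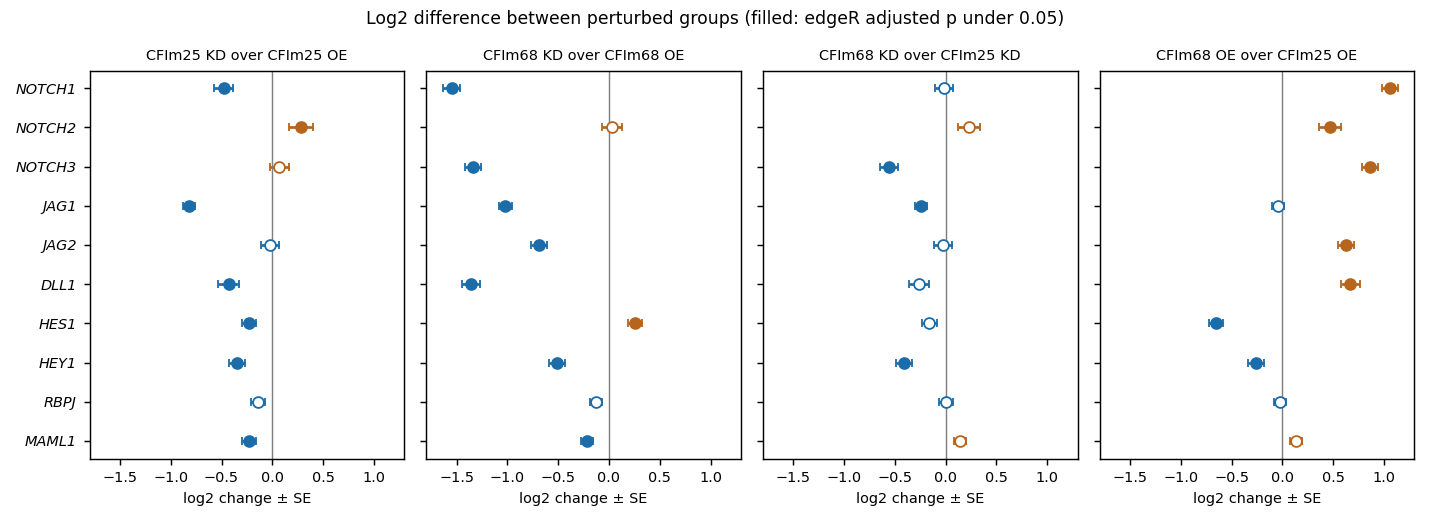
Log2 difference (horizontal axis) of the 10 genes between perturbed groups, as point ± SE from edgeR: knockdown over overexpression of each subunit in the left panels, and CFIm68 over CFIm25 in the right panels; filled points have an adjusted p under 0.05. NOTCH1, NOTCH3, JAG1 and DLL1 lie between -1.02 and -1.55 in CFIm68 knockdown over CFIm68 overexpression, and RBPJ is open in all 4 panels.

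The other genes of the pathway were taken from a list of 64, of which 63 are in the table and 55 were tested. In CFIm25 knockdown 10 were higher and 14 lower, in CFIm68 knockdown 15 and 15, in CFIm25 overexpression 13 and 16, and in CFIm68 overexpression 7 and 9. The share called was 43.6% in CFIm25 knockdown, beside 47.6% of all tested genes, 54.5% in CFIm68 knockdown, beside 56.4%, 52.7% in CFIm25 overexpression, beside 56.7%, and 29.1% in CFIm68 overexpression, beside 29.8%. These shares lie near those of all tested genes, and the counts by role below hold few genes each. Values are printed for the comparisons in which a gene had one of the smallest adjusted p of its role. Those of NCSTN, HES4 and HES6 are also printed for other comparisons, and for FURIN the calls in the knockdowns are added. Other named genes, such as POGLUT1 in CFIm25 overexpression, were also called in comparisons whose values are not printed. The median log2 change of the 55 genes was -0.11 in CFIm25 knockdown, 0.03 in CFIm68 knockdown, 0.0 in CFIm25 overexpression and 0.01 in CFIm68 overexpression. NOTCH4, the remaining receptor, was below the filter. DLK1, ADAM10, FBXW7 and NCOR1 are listed at 0 in every library, though ADAM10 and NCOR1 are widely expressed genes, for a reason that no source used here gives. NRARP was not analysed here.

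Of 4 tested further ligands and ligand-like genes, 0 were higher and 1 was lower in each knockdown, beside 47.6% and 56.4% of all tested genes called. It was DLK2, a non-canonical ligand, at -0.58 ± 0.18 in CFIm25 knockdown (SE, adjusted p = 0.0078) and -0.39 ± 0.16 in CFIm68 knockdown (adjusted p = 0.037). The Delta ligand DLL4 was higher in both overexpression groups, at 1.04 ± 0.17 with CFIm25 (adjusted p = 6.4e-06) and 0.70 ± 0.18 with CFIm68 (adjusted p = 0.0038). Of 6 genes for receptor glycosylation and furin cleavage, 2 were higher and 2 lower in CFIm25 knockdown, and 2 were higher and 3 lower in CFIm68 knockdown, beside 47.6% and 56.4% of all tested genes called. POGLUT1, which glucosylates the receptors, was higher, at 0.60 ± 0.07 in CFIm25 knockdown (adjusted p = 1.4e-07) and 0.63 ± 0.07 in CFIm68 knockdown (adjusted p = 4.8e-09). RFNG, a fringe enzyme that extends sugars on the receptors, was lower, at -0.78 ± 0.10 in CFIm25 knockdown (adjusted p = 6.5e-07) and -0.71 ± 0.09 in CFIm68 knockdown (adjusted p = 2.2e-07). FURIN, the protease that cuts the receptor precursor, was -0.48 ± 0.06 in CFIm25 overexpression (adjusted p = 1.7e-07) and 0.36 ± 0.06 in CFIm68 overexpression (adjusted p = 4.4e-05), and it was called lower in both knockdowns.

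Of 7 tested genes for the ADAM protease and gamma-secretase, which release the intracellular part, 1 was higher and 1 lower in CFIm25 knockdown, and 3 were higher and 1 lower in CFIm68 knockdown, beside 47.6% and 56.4% of all tested genes. APH1B, a gamma-secretase subunit, rose by 0.80 ± 0.12 in CFIm25 knockdown (SE, adjusted p = 4e-06) and 1.26 ± 0.11 in CFIm68 knockdown (adjusted p = 9.7e-11). Its paralogue APH1A rose by 0.23 ± 0.05 in CFIm68 knockdown (adjusted p = 0.00016). Nicastrin, the NCSTN product, is another subunit, and NCSTN was -0.32 ± 0.06 in CFIm25 knockdown (adjusted p = 6.2e-05), -0.13 ± 0.05 in CFIm68 knockdown (adjusted p = 0.036), -0.38 ± 0.05 in CFIm25 overexpression (adjusted p = 7.3e-07) and 0.22 ± 0.05 in CFIm68 overexpression (adjusted p = 0.0017). PSENEN, also a subunit, was -0.48 ± 0.06 in CFIm25 overexpression (adjusted p = 1.9e-07).

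Of 11 tested genes for ubiquitin ligases and endocytosis, 2 were higher and 2 lower in CFIm25 knockdown, and 3 were higher and 2 lower in CFIm68 knockdown, beside 47.6% and 56.4% of all tested genes. MIB2, a ligase that acts on ligands in the sending cell, was -1.23 ± 0.11 in CFIm25 knockdown (SE, adjusted p = 2.9e-10) and -1.28 ± 0.09 in CFIm68 knockdown (adjusted p = 3.2e-12), a larger fall than that of any of the 10 members in these comparisons. ITCH, a ligase that acts on the receptors, was 0.57 ± 0.06 in CFIm25 knockdown (adjusted p = 2.8e-08) and 0.86 ± 0.06 in CFIm68 knockdown (adjusted p = 6.5e-13). DTX4, of the Deltex family, was called in opposite directions in the overexpression groups, at 0.77 ± 0.12 with CFIm25 (adjusted p = 4.3e-06) and -0.79 ± 0.15 with CFIm68 (adjusted p = 0.0002).

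In the nucleus, 2 of 7 coactivators were higher and 2 lower in CFIm25 knockdown, and 2 were higher and 1 lower in CFIm68 knockdown, beside 47.6% and 56.4% of all tested genes. KAT2A, an acetyltransferase, was -0.31 ± 0.07 in CFIm25 knockdown (SE, adjusted p = 0.00064), -0.32 ± 0.06 in CFIm68 knockdown (adjusted p = 7.4e-05) and -0.23 ± 0.06 in CFIm68 overexpression (adjusted p = 0.0071). MAML3, of the family of MAML1, was 0.38 ± 0.07 in CFIm68 knockdown (adjusted p = 4.3e-05) and 0.31 ± 0.07 in CFIm25 overexpression (adjusted p = 0.00057). SNW1 was 0.20 ± 0.06 in CFIm25 knockdown (adjusted p = 0.0037). Of 11 corepressors, 0 were higher and 3 lower in CFIm25 knockdown, and 1 was higher and 4 lower in CFIm68 knockdown, beside the same shares. SPEN, which binds RBPJ and represses its targets, was -0.70 ± 0.10 in CFIm25 knockdown (adjusted p = 3.9e-06) and -0.99 ± 0.10 in CFIm68 knockdown (adjusted p = 1e-09). HDAC1, a histone deacetylase, was -0.54 ± 0.06 in CFIm25 knockdown (adjusted p = 6.5e-08), -0.45 ± 0.06 in CFIm68 knockdown (adjusted p = 9.6e-08) and -0.56 ± 0.06 in CFIm25 overexpression (adjusted p = 2.1e-09). TLE3, a Groucho-type corepressor, was 0.20 ± 0.06 in CFIm68 overexpression (adjusted p = 0.0098).

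Of 9 tested genes listed as further targets, 3 were higher and 3 lower in CFIm25 knockdown. In CFIm68 knockdown 4 were higher and 3 lower, beside 47.6% and 56.4% of all tested genes called in CFIm25 and CFIm68 knockdown. The knockdown values of those called higher are not printed here. Whether each listed gene is a target in these cells was not tested. HES4 was -0.78 ± 0.10 in CFIm25 knockdown (SE, adjusted p = 4.3e-07) and -0.87 ± 0.09 in CFIm68 knockdown (adjusted p = 3.6e-09), and HES6, which opposes HES1, was -0.49 ± 0.09 in CFIm25 knockdown (adjusted p = 3.2e-05) and -0.73 ± 0.08 in CFIm68 knockdown (adjusted p = 6.6e-09). In CFIm25 overexpression 2 of the 9 were higher and 4 lower, beside 56.7% of all tested genes called. HES4 was -0.33 ± 0.09 there (adjusted p = 0.0024) and HES6 -0.46 ± 0.08 (adjusted p = 1.3e-05). In CFIm68 overexpression 2 were higher and 3 lower, beside 29.8%. HES4 was 0.36 ± 0.09 there (adjusted p = 0.0025) and HES6 0.18 ± 0.08 (adjusted p = 0.075). HES4 was thus called in the direction of NOTCH1 in each perturbed group. It was named for its small adjusted p, and how many of all tested genes shared these calls was not counted. ID3 was 0.90 ± 0.14 in CFIm25 overexpression (adjusted p = 4.9e-06). SOX9, a transcription factor of cartilage and other tissues, was -0.60 ± 0.11 in CFIm68 overexpression (adjusted p = 0.00015).

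**Figure D5:**
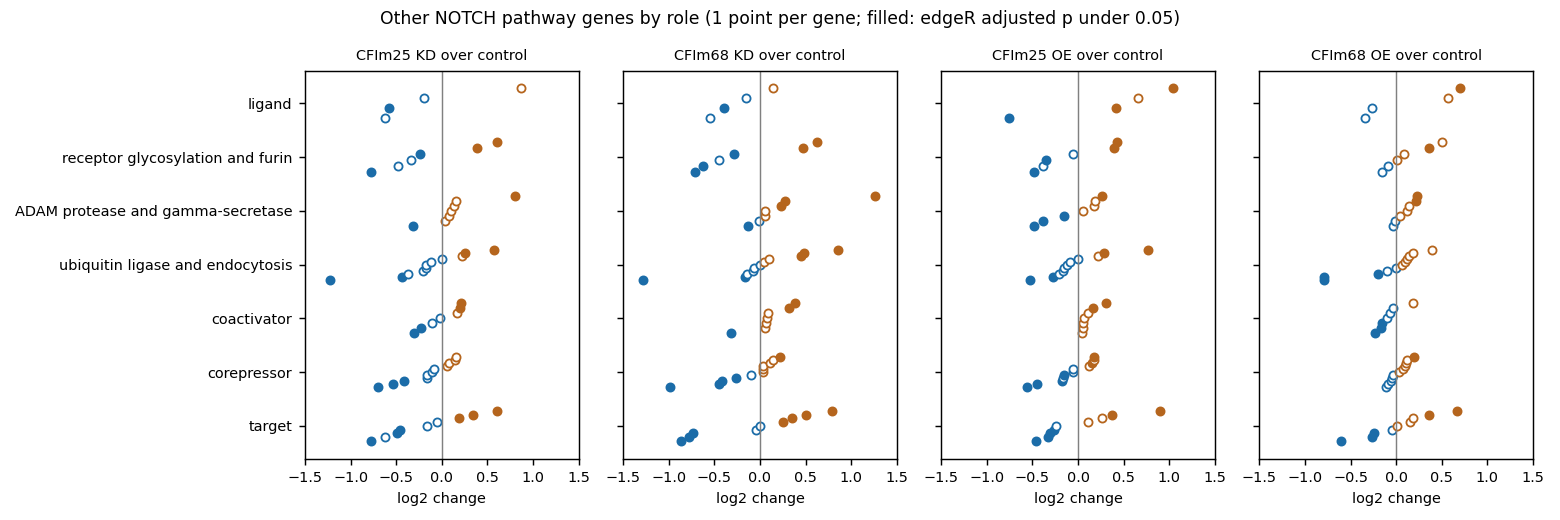
Log2 change over control (horizontal axis) of the 55 tested other pathway genes by role (rows), in the 4 perturbed groups (panels); 1 point per gene, filled where edgeR's adjusted p is under 0.05, blue below 0 and orange above. Most roles hold genes called in both directions, with MIB2 at -1.23 and -1.28 in the knockdowns and APH1B at 0.80 and 1.26.

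Across the 14 libraries, as a description over libraries that share their group structure, the genes most like NOTCH1 in log2 CPM were TRMT2A (Pearson r = 0.992), SCARF2 (0.989) and B4GALNT4 (0.988). Among the members, DLL1 had r = 0.956 with NOTCH1, JAG2 0.915, NOTCH3 0.912, MAML1 0.815, JAG1 0.701, RBPJ 0.361, HEY1 0.330, NOTCH2 0.144 and HES1 -0.60. By r with NOTCH1 over all tested genes, DLL1 had rank 80, JAG2 352, NOTCH3 374, MAML1 1147 and JAG1 2023. Many other tested genes were thus more like NOTCH1 than these members were. The genes most like NOTCH3 were ATP6AP2 (0.970), TUB (0.970) and SLC2A12 (0.9695), and those most like NOTCH2 were C21orf58 (0.9125), TLN1 (0.907) and NDST1 (0.903). NOTCH2 had r = -0.78 with HES1 and -0.70 with HEY1.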

How the data were processed

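RNA from 14 HEK 293 libraries was sequenced after stranded mRNA library preparation, per the labels' protocols. The authors deposited raw counts per gene, whole numbers with no normalization found in them. The submitters' processing notes name cutadapt 1.16, STAR 2.7.1a and the build hg38. Which tool and annotation gave the counts, and whether strand was used, no source used here states, so reads where genes overlap may be shared. Of 18006 identifiers, 17959 matched a symbol, 2524 genes were at 0 in every library, and 12080 passed filterByExpr (minimum count 10, total 15).

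Counts were fitted in R 4.3.3 with edgeR 4.0.16 (TMM factors of 0.973 to 1.05; quasi-likelihood test; 1 coefficient per group over all 14 libraries), with Benjamini-Hochberg adjustment over the 12080 genes of each of 8 comparisons and a threshold of 0.05. The fit was tested on simulated data. The SE of a log2 change comes from the test's F statistic. The common dispersion had a square root of 0.0501, and log2 CPM of libraries of 1 group correlated at 0.993 to 0.997 across genes. Alternatives used DESeq2 1.42.0, limma 3.58.1 with voom, other scaling and filters, a replicate block, each library left out, and subtraction of the median log2 change of the 50 nearest tested genes on the chromosome. CPM per kb used the principal transcript of GENCODE 29. Correlations used log2(CPM + 0.5).

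The members, the lists and the comparisons were chosen with earlier results of these data known. Genes named beside the members are NUDT21 and CPSF6, from each role of the pathway list up to 2 genes past the threshold with the smallest adjusted p in each knockdown and 1 in each overexpression group (mean of at least 1 CPM), and the 3 genes most correlated with each receptor.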

Additional observations from a re-analysis of the deposited data

Results flagged for a closer look

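For 10 results the 2 subunits' effects of the same kind differed by edgeR's test of the difference itself. In CFIm68 overexpression against CFIm25 overexpression these were NOTCH1 (log2 difference 1.06, adjusted p = 3.1e-12), NOTCH2 (0.47, adjusted p = 0.00053), NOTCH3 (0.86, adjusted p = 6.3e-10), JAG2 (0.63, adjusted p = 1.3e-07), DLL1 (0.67, adjusted p = 7.7e-08), HES1 (-0.65, adjusted p = 3.8e-09) and HEY1 (-0.26, adjusted p = 0.0054). NOTCH1 and NOTCH3 were the members called in opposite directions against control in these groups. In CFIm68 knockdown against CFIm25 knockdown they were NOTCH3 (-0.56, adjusted p = 5e-05), JAG1 (-0.24, adjusted p = 0.005) and HEY1 (-0.41, adjusted p = 0.00059). Differences of this kind were called for 63.7% and 24.2% of tested genes. Groups of 3 libraries or fewer were not screened for single libraries far from the others.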

How the results depend on the processing

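Of 80 results (10 genes in 8 comparisons), 50 were called, and 37 of these kept their call and direction under every alternative run. The calls that were lost are given beside their results, except that NOTCH2 in CFIm25 knockdown against CFIm25 overexpression (0.28) was also lost with a filter of 1 CPM in 3 libraries (adjusted p = 0.0565), with DESeq2 (adjusted p = 0.0587), with only the compared groups fitted (adjusted p = 0.0651), with neighbours' medians removed (adjusted p = 0.133), without CFIm25 overexpression replicate 2 (adjusted p = 0.082) and without its replicate 3 (adjusted p = 0.229). The cause was not tested.

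Counts moved by more than 1.5 times in few settings. With neighbours' medians removed 2391 genes were called in CFIm68 overexpression against control, in place of 3605. With only the compared groups fitted, 6 members were called in CFIm68 against CFIm25 knockdown in place of 3. The genes called there, 4337 in place of 2929, stayed within 1.5 times. Leaving out 1 library gave 1 to 4 members and 1465 to 2384 genes in that comparison, and 4 to 7 members in CFIm25 knockdown against CFIm25 overexpression. No scaling moved the median of all genes by over 0.1.

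Direction changed for 1 called result, MAML1 in CFIm68 knockdown against CFIm68 overexpression (0.062 with neighbours' medians removed). The other reversals were of results not past the threshold. With neighbours' medians removed they were HEY1 in CFIm25 knockdown (-0.0052), MAML1 in CFIm68 knockdown (0.069), NOTCH2 (-0.030) and HES1 (0.038) in CFIm68 overexpression, RBPJ in CFIm68 against CFIm25 knockdown (0.063), JAG1 (0.050), RBPJ (0.024) and MAML1 (-0.15, adjusted p = 0.0269) in CFIm68 against CFIm25 overexpression, and JAG2 in CFIm25 knockdown against CFIm25 overexpression (0.059). With single libraries left out the ranges crossed 0 for RBPJ (-0.079 to 0.0087) and HEY1 (-0.064 to 0.23) in CFIm25 knockdown, RBPJ in CFIm68 knockdown (-0.081 to 0.0061), MAML1 in CFIm25 overexpression (-0.0066 to 0.047), NOTCH2 in CFIm68 overexpression (-0.015 to 0.17), RBPJ (-0.014 to 0.0082), NOTCH1 (-0.12 to 0.11) and JAG2 (-0.13 to 0.085) in CFIm68 against CFIm25 knockdown, RBPJ in CFIm68 against CFIm25 overexpression (-0.072 to 0.023), JAG2 in CFIm25 knockdown against CFIm25 overexpression (-0.15 to 0.084) and NOTCH2 in CFIm68 knockdown against CFIm68 overexpression (-0.070 to 0.11).

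Replicate numbers are shared between groups, but deviations from the group means correlated over 0.1 in 3 of 26 same-numbered pairs (-0.0627 to 0.1713, median 0.0204) and in 0 of 52 differently numbered pairs (-0.184 to 0.0838, median -0.0058). These correlations do not decide whether the numbers mark pairs, since pairing need not bring every pair over 0.1. The main fit left the numbers out, and a fit that used them as a block is given next. A replicate block gave 7 called members in each knockdown, 8 in CFIm25 overexpression and 6 in CFIm68 overexpression against control, beside 5890, 7103, 7128 and 4064 genes in these 4 comparisons, in place of 5746, 6811, 6854 and 3605. It added RBPJ in CFIm25 overexpression (0.12, adjusted p = 0.0462), HEY1 (0.18, adjusted p = 0.0458) and MAML1 (0.15, adjusted p = 0.0361) in CFIm68 overexpression, DLL1 in CFIm68 against CFIm25 knockdown (-0.29, adjusted p = 0.0241) and RBPJ in both comparisons of knockdown with overexpression, and lost NOTCH2 in CFIm25 knockdown against CFIm25 overexpression (0.26, adjusted p = 0.0597). Under the block RBPJ in CFIm68 against CFIm25 knockdown was 0.023.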
